A study of Ovis aries with 30 samples.

Results

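Wnt proteins are secreted signals that bind Frizzled and LRP receptors, spare beta-catenin from degradation and switch on target genes through TCF factors. R-spondins bind LGR receptors and remove the ubiquitin ligases ZNRF3 and RNF43, which otherwise clear Frizzled from the cell surface. In mouse liver, endothelial cells around the central vein are a known source of WNT2, WNT9B and RSPO3, and the hepatocytes next to them carry the pericentral programme that includes glutamine synthetase (GLUL) and CYP2E1. The 10 genes described here were taken as a named set of Wnt ligands, receptors, feedback regulators and targets of this system: WNT2, WNT2B, WNT9B, RSPO3, LGR5, ZNRF3, RNF43, AXIN2, NKD1 and TBX3. All 10 were found by symbol among the 31304 gene rows of the count table, and all 10 passed the filter on low counts that left 17840 genes for testing.

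The counts come from whole liver of 30 first-generation sheep lambs (Ovis aries), with 1 library for each animal. Their dams had been exposed before conception and during gestation to biosolids, processed sewage sludge that carries a mixture of environmental chemicals, or had served as controls. There were 8 biosolids females, 8 control females, 7 biosolids males and 7 control males; lamb age, breed and litter are not given in the sources used here. Whole tissue mixes hepatocytes with endothelial, stromal and immune cells, so fewer cells of a type and less RNA per cell cannot be told apart.

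Libraries held between 18.7 and 51.9 M counts in all. The library of biosolids male 8778 had 87.5% of its counts on ribosomal RNA rows, against at most 7.69% in the other 29, so that only 2.34 M counts fell on other genes, among them 8 reads each of WNT2, WNT9B and LGR5. Levels are given as CPM, counts scaled to a TMM-adjusted library of 1 M (M standing for mega), and across genes as CPM per kilobase of exon. The labelled tissue was met by its markers: 13 hepatocyte markers summed to between 71580 and 136700 CPM in every lamb.

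Reads in exons that a member shares with a neighbouring gene were taken as not counted for either gene. All 45 genes whose exons lay wholly within exons of a gene on the opposite strand, and all 90 within exons of a gene on the same strand, were at 0 in every lamb, against 8.87% of the 21219 genes that share no exon base (genes of at least 300 exon bases). For most members few exon bases are shared. WNT2B (chromosome 1, 89923116 to 89945269, plus strand, in assembly ARS-UI_Ramb_v3.0) was the exception. Of its 9410 exon bases, 7856 (83.5%) are also exons of ST7L on the other strand, which leaves 1554 bases of its own. Whether reads lying partly in those bases and partly in shared bases were counted cannot be read from genes that lie wholly within another. RNF43 shares 1753 of 19998 exon bases with SUPT4H1, which was itself at 0 in every lamb, and TBX3 shares 488 of 4879 with the long non-coding LOC121816955. AXIN2 shares 103 of 4249 with LOC121820678. The other 6 members share no exon base with another gene.

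Measured per kilobase of exon that no other gene shares, the 10 members spanned a wide range of levels. TBX3, a T-box transcriptional repressor (chromosome 17, 60162178 to 60176145), was highest at 35.7 CPM per kilobase, the 92.97th percentile of the genes tested. ZNRF3, the receptor ubiquitin ligase (chromosome 17, 68271214 to 68415363), averaged 9.37 CPM per kilobase. AXIN2, a scaffold of the complex that degrades beta-catenin and itself a widely used Wnt target (chromosome 11, 61407541 to 61436186), averaged 4.13 CPM per kilobase. In mouse liver these are genes that hepatocytes near the central vein are known to express. The ligands sat together and lower. WNT2B averaged 2.16, WNT2 (chromosome 4, 52578934 to 52624969) 1.88, RSPO3 (chromosome 8, 11351810 to 11446469) 1.87 and WNT9B (chromosome 11, 45065344 to 45089460) 1.77 CPM per kilobase, with lamb ranges that overlapped. RNF43, the partner ligase of ZNRF3 (chromosome 11, 9008244 to 9084548), stood at 1.81 CPM per kilobase over a gene model of 20.0 kilobases. LGR5, the R-spondin receptor (chromosome 3, 107555955 to 107687767), averaged 1.13 CPM per kilobase and NKD1, a feedback inhibitor that binds Dishevelled (chromosome 14, 18467509 to 18574017), 0.118, the lowest of the set. Long gene models such as those of RNF43 and NKD1 lower a per-kilobase level wherever liver uses a shorter transcript.

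Among all Wnt ligands, WNT2B, WNT2 and WNT9B stood apart from the rest per kilobase of unshared exon. The next ligands, WNT7B, WNT4, WNT9A, WNT5A and WNT7A, averaged between 0.131 and 0.320 CPM per kilobase, and the other 11 ligands did not pass the low-count filter. The place of WNT2B rests on division by its 1.554 kilobases of unshared exon. Division by its full 9.41 kilobases would lower its level to near that of WNT7B. Before division WNT2B, WNT2 and WNT9B averaged 3.35, 4.20 and 4.26 CPM, and WNT7B, the highest of the rest tested, 1.23 CPM. WLS, which carries Wnt proteins to the cell surface, averaged 2.74 CPM per kilobase. Of the R-spondins only RSPO3 and RSPO2 were tested, at 1.87 and 0.165 CPM per kilobase. On the receptor side LGR4, at 8.37 CPM per kilobase, exceeded LGR5 at 1.13 CPM per kilobase, and LRP5 was the highest receptor at 75.9 CPM per kilobase. FZD5, FZD4 and FZD8 followed at 37.1, 30.2 and 24.2 CPM per kilobase. Among the inhibitors APCDD1, a membrane protein, averaged 35.7 CPM per kilobase and NOTUM, a secreted enzyme that removes the lipid from Wnt proteins, 25.4 CPM per kilobase, both above NKD1 at 0.118.

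**Figure D1:**
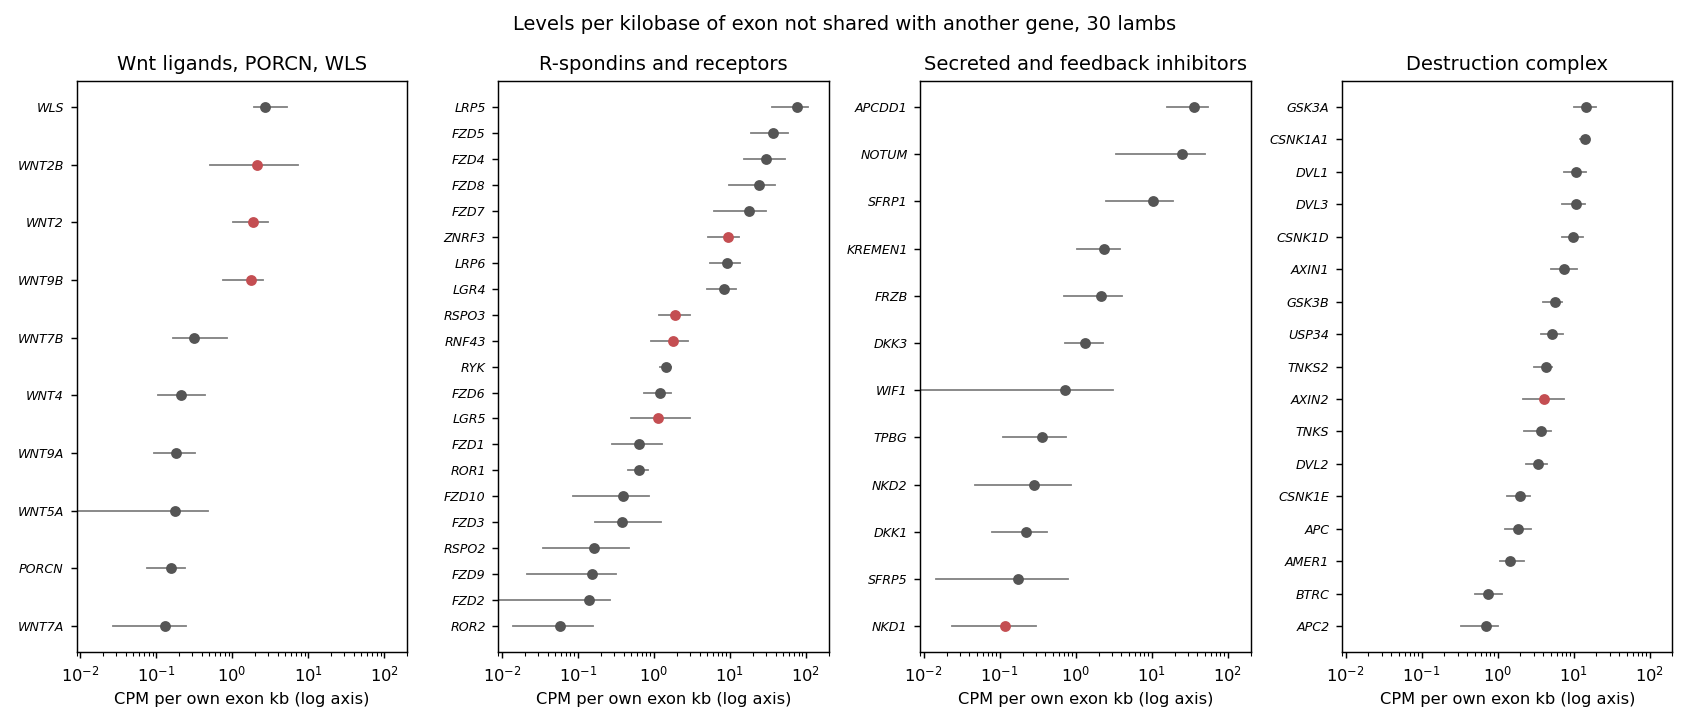
Mean level of Wnt pathway genes over 30 lambs in CPM per kilobase of exon not shared with another gene (log axis), in 4 groups of genes; points are means, lines run from the lowest to the highest lamb and leave the axis where a lamb was near 0, and red points are members of the set. WNT2B, WNT2 and WNT9B lie between 1.77 and 2.16, above every other Wnt ligand tested, and ZNRF3 lies at 9.37.

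The first comparison asked whether biosolids exposure changed the set in male lambs, and WNT2B was the member that differed most. WNT2B, a secreted ligand related to WNT2, had a lowest level of 1.10, a median of 1.34 and a highest of 3.19 CPM in biosolids males, against 1.98, 3.67 and 8.11 CPM in control males. All 7 biosolids males lay below the control median, and 5 of them below every control male. The highest biosolids male was lamb 8778, whose 3.19 CPM rest on 9 reads (95% exact Poisson interval 1.46 to 6.07 CPM, counting error only). WNT2B averaged 1.67 ± 0.793 CPM in biosolids males and 4.32 ± 2.25 CPM in control males (SD, n = 7 each). The log2 fold change was -1.50 ± 0.43 (SE), with a 95% interval of -2.37 to -0.62. By edgeR's quasi-likelihood test the p was 0.00157, the 30th smallest of 17840 genes, and the Benjamini-Hochberg adjusted p was 0.816, so WNT2B did not pass over all genes. Without lamb 8778 the log2 fold change was -1.61.

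Other genes were read beside WNT2B in the males. ST7L, which shares most of the WNT2B exons, averaged 17.4 ± 2.99 CPM in biosolids males and 13.9 ± 3.39 CPM in control males (SD, n = 7 each). Its log2 difference, 0.31 ± 0.14 (SE), had the opposite sign to that of WNT2B. By edgeR's quasi-likelihood test its p was 0.036 and its Benjamini-Hochberg adjusted p 0.816, so ST7L did not pass. The summed level of 19 stellate cell and fibroblast markers ranged from 608 to 1350 CPM (median 914) in biosolids males and from 1020 to 1325 CPM (median 1197) in control males. The summed level of 15 sinusoidal endothelial markers had nearly equal medians, with a range of 1178 to 1558 CPM (median 1404) in biosolids males and of 1364 to 1548 CPM (median 1420) in control males. The 13 hepatocyte markers all had a lower mean in biosolids males, and their sum ranged from 78790 to 132700 CPM (median 111700) in biosolids males and from 107300 to 136700 CPM (median 114400) in control males. ALB weighs most in that sum, at a mean of 52360 CPM over all lambs, and its log2 fold change in males was -0.01 ± 0.20 (SE). The part of these lists and of ST7L in the WNT2B difference was not tested.

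None of the other 9 members reached an unadjusted p of 0.05 for exposure in males. 1 of 10 members did so, WNT2B, where 5.44% of all genes tested did, and no member and no gene passed at an adjusted p under 0.05 (0% of 17840 genes). DESeq2 called 4 genes and limma's voom 0 there, none of them a member. AXIN2 had the next smallest p. It lay between 8.87 and 22.2 CPM (median 17.3) in biosolids males and between 10.3 and 30.9 CPM (median 18.5) in control males, a log2 fold change of -0.32 ± 0.20 (SE), with a 95% interval of -0.74 to 0.09. TBX3 ranged from 78.5 to 232 CPM (median 161.5) in biosolids males and from 112 to 248 CPM (median 213) in control males, with a log2 fold change of -0.31 ± 0.21. In both genes the groups overlapped widely. ZNRF3 averaged 61.5 ± 15.0 CPM in biosolids males and 70.7 ± 16.1 CPM in control males (SD, n = 7 each), and RNF43 averaged 34.4 ± 9.54 CPM in biosolids males and 35.5 ± 6.86 CPM in control males. Their intervals ran from -0.58 to 0.19 for ZNRF3 and from -0.40 to 0.32 for RNF43 on the log2 scale. In each of these 2 genes the ranges of both groups overlapped. For the endothelial ligands the log2 fold changes were 0.11 ± 0.22 for WNT2, -0.08 ± 0.23 for WNT9B and 0.15 ± 0.16 for RSPO3 (SE). RSPO3 was highest in biosolids male 8778, at 7.10 CPM from 20 reads, where the group median was 4.56 CPM. LGR5 averaged 5.59 ± 2.24 CPM in biosolids males and 6.14 ± 3.35 CPM in control males. NKD1 averaged 1.60 ± 0.975 CPM in biosolids males and 1.99 ± 1.27 CPM in control males (SD, n = 7 each). Both differences turned on control male 8408, the highest of the 30 lambs for LGR5 and NKD1 at 13.55 and 4.76 CPM. Without that lamb the log2 fold changes were 0.22 for LGR5 and 0.03 for NKD1, in place of -0.10 and -0.35.

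**Figure D2:**
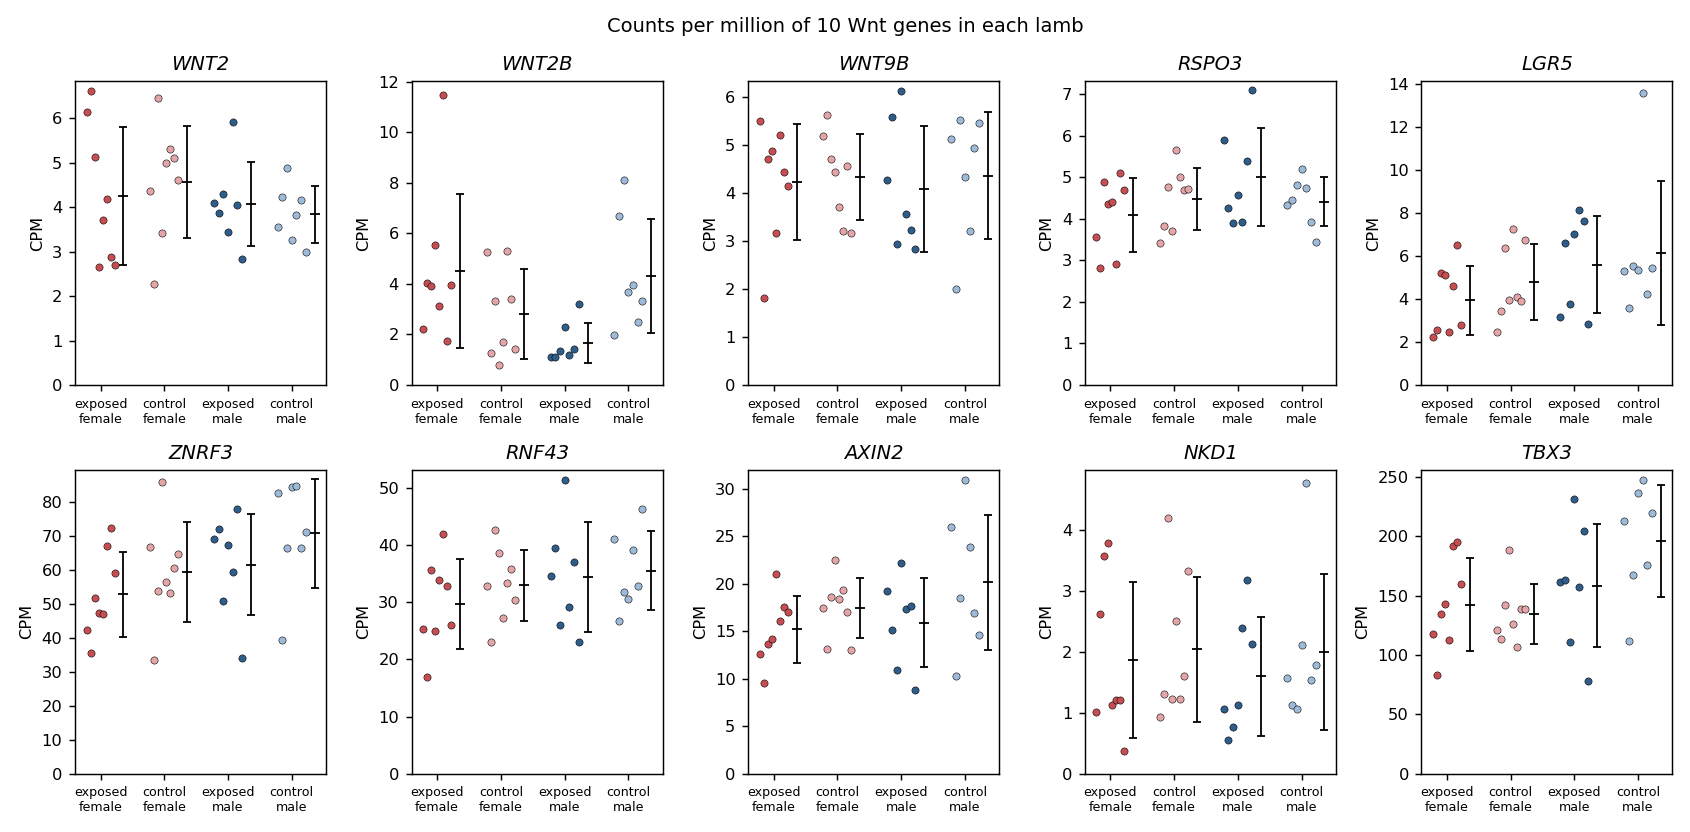
CPM of each of the 10 genes in each lamb, by group, on linear axes from 0; points are lambs and the bar beside each group is the mean ± SD (n = 8 for females and 7 for males in each exposure group). In the WNT2B panel 5 of 7 biosolids males lie below every control male, while the groups overlap in the other panels.

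In females the same question was asked, and no member reached an unadjusted p of 0.05, where 3.65% of genes tested did. No gene passed at an adjusted p under 0.05 (0% of 17840), by edgeR, DESeq2 or voom. WNT2B had the smallest p of the set, with a higher mean in biosolids females. Its levels ran from 1.74 to 11.5 CPM (median 3.95) in biosolids females and from 0.806 to 5.31 CPM (median 2.53) in control females. 2 biosolids females lay above every control female, led by lamb 8731 at 11.5 CPM from 418 reads, and the groups otherwise overlapped. The log2 fold change was 0.68 ± 0.38 (SE), with a 95% interval of -0.10 to 1.45. AXIN2 was lower on average, at 15.2 ± 3.50 CPM in biosolids females against 17.5 ± 3.16 CPM for control females (SD, n = 8 each), with 7 of 8 biosolids females below the control median and a log2 fold change of -0.20 ± 0.19. LGR5 averaged 3.93 ± 1.61 CPM in biosolids females and 4.77 ± 1.75 CPM in control females. ZNRF3 averaged 52.8 ± 12.6 CPM in biosolids females and 59.3 ± 14.8 CPM in control females, and RNF43 averaged 29.7 ± 7.83 CPM in biosolids females and 33.0 ± 6.21 CPM in control females. None of these intervals excluded 0. The narrowest was that of RSPO3, with a log2 fold change of -0.13 ± 0.15 (95% interval -0.43 to 0.17), from 4.09 ± 0.884 CPM in biosolids females against 4.47 ± 0.752 CPM for control females (SD, n = 8 each). WNT2, WNT9B, NKD1 and TBX3 had log2 fold changes of -0.10, -0.03, -0.13 and 0.08, with standard errors of 0.20, 0.21, 0.42 and 0.19.

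Averaged over both sexes, no member reached an unadjusted p of 0.05, where 4.3% of genes tested did. No gene passed after adjustment by edgeR (0%), while DESeq2 called 4 genes and voom 0, none of them a member. AXIN2 had the smallest p of the set, with a log2 fold change of -0.26 ± 0.14 (SE). In the edgeR model over all 30 lambs its adjusted p was 0.943. WNT2 and RSPO3 were at 0.00 ± 0.15 and 0.01 ± 0.11. Exposure effects beyond -0.30 to 0.30 for WNT2 and -0.21 to 0.24 for RSPO3 lay outside their 95% intervals.

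The interaction, the exposure effect in males minus that in females, was largest for WNT2B. The order of its group means was 4.51 CPM in biosolids females, 4.32 CPM in control males, 2.82 CPM in control females and 1.67 CPM in biosolids males. Every biosolids male lay below the medians of biosolids females and control males, while the other groups overlapped on both sides of their medians. The interaction was -2.17 ± 0.57 log2 units (SE), with a 95% interval of -3.34 to -0.999. Its p of 0.00068 was the 14th smallest of 17840 genes by edgeR's quasi-likelihood test, and its adjusted p was 0.867. 1 of 10 members reached an unadjusted p of 0.05, where 3.63% of genes tested did, and 0% passed after adjustment. DESeq2 called 1 gene for the interaction, which was not a member, and voom called 0. Without lamb 8731 the interaction was -1.81, and without lamb 8778 it was -2.29. TBX3 had the next smallest p of the set, at -0.39 ± 0.28, and RSPO3 followed at 0.28 ± 0.22.

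**Figure D3:**
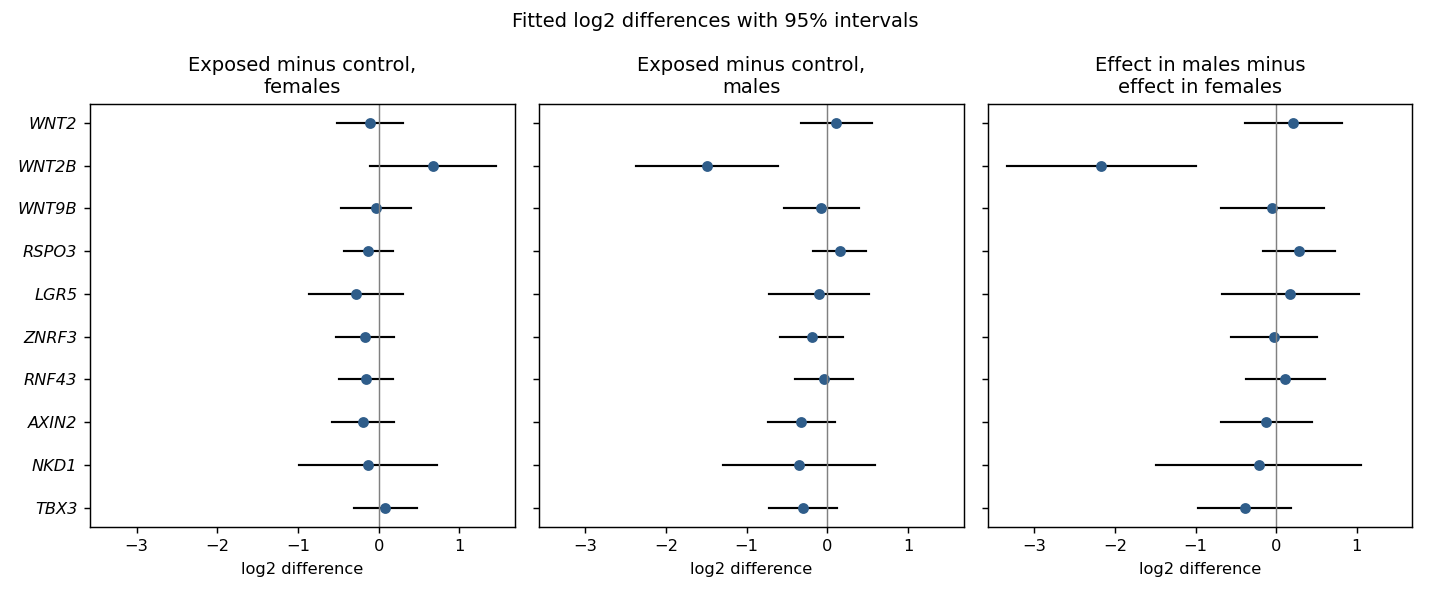
Fitted log2 differences of the 10 genes (points) with 95% intervals (lines) for biosolids minus control females, biosolids minus control males, and the effect in males minus the effect in females, on a shared axis. Only the WNT2B intervals in the male and interaction panels exclude 0, at -2.37 to -0.62 and -3.34 to -0.999.

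Males and females were compared within each exposure. Among controls TBX3 was the only member with an unadjusted p under 0.05, where 18.9% of genes tested had one and 0.0841% passed after adjustment. It ranged from 112 to 248 CPM (median 213) in control males and from 107 to 188.5 CPM (median 133) in control females. 4 of 7 control males lay above every control female. The log2 difference of males minus females was 0.54 ± 0.20 (SE). In the edgeR model over all 30 lambs its p was 0.0104 and its adjusted p 0.216, so TBX3 did not pass. Among biosolids lambs WNT2B differed most by sex, with 5 of 7 males below every female and a log2 difference of -1.56 ± 0.42 (SE). In the same model its p was 0.000884 and its adjusted p 0.426. Without lamb 8731 that difference was -1.19. 4.85% of genes tested reached an unadjusted p of 0.05 there, and 0.0953% passed after adjustment. LGR5 was higher on average in males, at 5.59 ± 2.24 CPM in biosolids males and 3.93 ± 1.61 CPM in biosolids females (log2 difference 0.54 ± 0.30), without passing.

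The pathway was also read from lists of known components, counted here without the members they hold. For exposure in males all 7 other ligand and secretion genes had a higher mean in biosolids males, with a median of 0.23, and none passed. The smallest p among them was that of PORCN, the enzyme that adds the lipid to Wnt proteins, at 0.26 ± 0.24 on the log2 scale. Of these 7 genes, WNT4, WNT5A, WNT7A and WNT9A averaged only 0.416 to 0.817 CPM, with at most 3 reads in the lowest lamb. Over all 17840 genes tested, 9151 had a higher mean in biosolids males. Of 17 other R-spondins and receptors 5 had a higher mean, with ROR1 at -0.24 ± 0.15 and FZD4 at -0.30 ± 0.22. Of 11 other inhibitors 5 had a higher mean, with DKK3 at -0.41 ± 0.24 and SFRP1, a Frizzled decoy, at -0.56 ± 0.34. Of 16 other genes of the destruction complex list 3 had a higher mean, with DVL3 at -0.27 ± 0.14 and AXIN1 at -0.22 ± 0.14. Their median was -0.09 beside 0.01 over all genes. That list also holds genes that act on the complex without being parts of it, among them DVL1, DVL2, DVL3, TNKS, TNKS2 and USP34. Of 14 nuclear effectors, none a member, 5 had a higher mean, with CTNNBIP1 at -0.25 ± 0.16 and LEF1 at -0.30 ± 0.24. The set of 10 had 2 higher means and a median of -0.15. No gene of these lists passed.

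For exposure in females 3 of 7 other ligand genes, 7 of 17 receptors and 6 of 11 inhibitors had a higher mean in biosolids lambs. So did 11 of 16 other genes of the destruction complex list and 8 of 14 nuclear effectors, and no gene of these lists passed. The smallest p in each list belonged to WNT7B at 0.54 ± 0.30, FZD3 at -0.75 ± 0.30, SFRP5 at -0.86 ± 0.52, CSNK1A1 at 0.15 ± 0.08 and TCF7 at -0.20 ± 0.17 (log2 fold change ± SE). FZD3 was the only gene of these lists with an unadjusted p under 0.05. The medians lay between -0.03 and 0.15, beside -0.01 over all genes and -0.13 over the 10 members.

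CTNNB1, which encodes beta-catenin, averaged 164.5 ± 20.7 CPM in biosolids females, 157.7 ± 27.4 CPM in control females, 167.5 ± 33.2 CPM in biosolids males and 156.8 ± 13.2 CPM in control males (SD, n = 8 for females and 7 for males in each group). All 4 ranges overlapped. LGR4 averaged 58.5 ± 15.0 CPM in biosolids males and 62.5 ± 8.28 CPM in control males.

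Zonation markers were read beside the regulators. The pericentral list held 20 tested genes, 6 of them members (AXIN2, LGR5, NKD1, RNF43, TBX3 and ZNRF3). Of the other 14, 4 had a higher mean in biosolids males and 7 in biosolids females, with medians of -0.26 and -0.01 on the log2 scale. Of 23 periportal genes, 5 had a higher mean in biosolids males and 15 in biosolids females, with medians of -0.16 and 0.08. None of them passed in either sex. In males the general hepatocyte markers had a lower mean in biosolids lambs for 13 of 13 genes, with a median of -0.18, and their part in the zonation lists was not tested. The lists overlap, since CYP2E1 is also in the pericentral list and TAT in the periportal list. GLUL had a median of 357.8 CPM (range 208.0 to 714.1 CPM) in biosolids males, against a control male median of 412.0 CPM (range 214.6 to 448.9 CPM). The means ran the other way, at 395 ± 185 CPM in biosolids males and 369 ± 85.0 CPM in control males (SD, n = 7 each). In females GLUL had a median of 303.5 CPM (range 218.3 to 351.1 CPM) in biosolids females, against a control female median of 271.1 CPM (range 189.6 to 454.6 CPM). CYP2E1 averaged 7508 ± 2019 CPM in biosolids males and 8001 ± 1814 CPM in control males. LHPP at -0.32 ± 0.19 and the member AXIN2 had the smallest p of the pericentral list in males, and SDS at -1.36 ± 0.77 and PIGR at -0.75 ± 0.44 those of the periportal list. In females the smallest p belonged to ALDH1A1 at -0.29 ± 0.23 and SLC1A4 at 0.31 ± 0.28, and to SDSL at 0.38 ± 0.19 and TDO2 at -0.42 ± 0.28.

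Between control males and control females, the destruction complex list without AXIN2 had a higher mean in males for 15 of 16 genes, 7 of them at an unadjusted p under 0.05, where 7.74% of all genes tested were higher at that level. APC, a scaffold of the complex, was at 0.41 ± 0.14 and DVL3, which acts on the complex, at 0.35 ± 0.13 (log2 difference ± SE). Of 17 R-spondins and receptors that are not members 13 had a higher mean, 4 of them at an unadjusted p under 0.05, led by LRP6 at 0.48 ± 0.17 and LGR4 at 0.46 ± 0.16. None passed after adjustment. The medians were 0.24 and 0.32, beside -0.04 over all genes. In the same comparison the stellate cell and fibroblast markers had a higher mean in males for 18 of 19 genes, and the hepatocyte markers for 10 of 13 with a median of 0.32. The mean of ribosomal protein genes had a median of 6.71 log2 CPM in control males and 7.54 log2 CPM in control females. The part of these in the Wnt lists was not tested.

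Across lambs the members fell into linked and unlinked genes. Pearson's r was computed over 30 lambs on log2 CPM after the 4 group means were removed, for 45 pairs, with 100000 permutations within groups. 11 pairs passed at an adjusted p under 0.05, all positive, and 8 of them also passed by Spearman's rho. TBX3, ZNRF3, AXIN2 and RNF43 were linked in all 6 of their pairs. The closest was ZNRF3 with TBX3, at r = 0.88 and rho = 0.89 (permutation p = 1e-05 for both, the smallest these permutations can give; adjusted p = 0.00045 for both). Without lambs 8364 and 8778, the farthest from the median of ZNRF3, r was 0.81. Within groups it was 0.96 in biosolids females, 0.71 in control females, 0.92 in biosolids males and 0.97 in control males. A correlation as high was held by 0.292% of all genes tested with ZNRF3 and by 0.0841% with TBX3. Over all 6 pairs that share ran up to 7.24%, the share with RNF43 for RNF43 and AXIN2, and it was 6.88% with ZNRF3 for ZNRF3 and RNF43. AXIN2 with TBX3 gave r = 0.75 and rho = 0.68 (permutation p = 7e-05 and 0.00027, adjusted p = 0.00063 and 0.00304), and r = 0.62 without lambs 8364 and 8778.

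LGR5 and NKD1 were linked as well. Their r was 0.55 and their rho 0.56 (permutation p = 0.00414 and 0.00357, adjusted p = 0.0186 and 0.0229), with r = 0.53 without lambs 8408 and 8733. Within groups r was 0.41 in biosolids females, 0.90 in control females, 0.20 in biosolids males and 0.88 in control males. The difference between groups was not tested. LGR5 was also linked with TBX3 at r = 0.62 and rho = 0.56 (permutation p = 0.00089 and 0.00318, adjusted p = 0.00572 and 0.0229), with r = 0.57 without the same 2 lambs. LGR5 with ZNRF3 gave r = 0.49 and rho = 0.45 (permutation p = 0.0110 and 0.0218, adjusted p = 0.0452 and 0.0980), so that pair passed by r alone. A correlation as high as that of LGR5 with TBX3 was held by 1.27% of genes tested with LGR5 and 9.23% with TBX3. For LGR5 with ZNRF3 the shares were 5.32% with LGR5 and 17.9% with ZNRF3. For LGR5 with NKD1 they were 2.90% with LGR5 and 0.488% with NKD1. WNT9B was linked with TBX3 and RNF43 at r = 0.58 and 0.56, and without lambs 8364 and 8649 r was 0.35 and 0.36. Over all 30 lambs neither pair passed by Spearman's rho (adjusted permutation p = 0.269 and 0.0857). Within groups r with TBX3 and RNF43 was 0.72 and 0.63 in biosolids females and 0.56 and 0.55 in control males. In the groups without those lambs it was 0.68 and 0.88 in biosolids males and 0.065 and -0.056 in control females. As high an r was held by 11.6% of genes tested with TBX3 and 9.48% with RNF43. NKD1 with TBX3 and NKD1 with ZNRF3 did not pass. The ligands WNT2, WNT2B and RSPO3 had no pair that passed with any member. WNT2 and RSPO3, both known from the same central vein endothelium in mouse, gave r = -0.21 and rho = -0.15 (permutation p = 0.330 and 0.480, adjusted p = 0.632 and 0.697), and r = -0.20 without lambs 8263 and 8649. Within groups that r differed in sign, at -0.63 in biosolids females, 0.61 in control females, -0.69 in biosolids males and 0.35 in control males, and the difference was not tested. RSPO3 with AXIN2 gave r = 0.18 and rho = 0.26 (permutation p = 0.352 and 0.187, adjusted p = 0.634 and 0.496), and r = 0.10 without lambs 8649 and 8731.

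In a second family each member was set against 4 pericentral markers, which made 40 pairs, of which 5 passed by Pearson's r and 7 by Spearman's rho. The closest was NKD1 with GLUL, at r = 0.67 and rho = 0.71 (permutation p = 7e-05 and 6e-05, adjusted p = 0.0028 and 0.0024), and r = 0.67 without lambs 8408 and 8775. Only 0.0336% of genes tested were correlated as highly with NKD1. LGR5 with CYP2E1 gave r = 0.62 and rho = 0.59 (permutation p = 0.00073 and 0.00164, adjusted p = 0.0146 and 0.026), with r = 0.54 without lambs 8408 and 8733. LGR5 with GLUL gave r = 0.55 and rho = 0.58 (permutation p = 0.00413 and 0.00195, adjusted p = 0.0411 and 0.026), and 0.56 without those 2 lambs. RHBG, an ammonia transporter of pericentral hepatocytes, gave r = 0.53 with LGR5 and rho = 0.54 (permutation p = 0.00514 and 0.00517, adjusted p = 0.0411 and 0.0414), and 0.42 without them. ZNRF3 with CYP2E1, at r = 0.52 and rho = 0.56, was the other pair that passed by r (permutation p = 0.00494 and 0.00303, adjusted p = 0.0411 and 0.0303), with r = 0.60 without lambs 8364 and 8778, but 16.1% of genes tested were correlated as highly with ZNRF3. OAT, the ornithine aminotransferase of the same zone, had no pair that passed here.

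**Figure D4:**
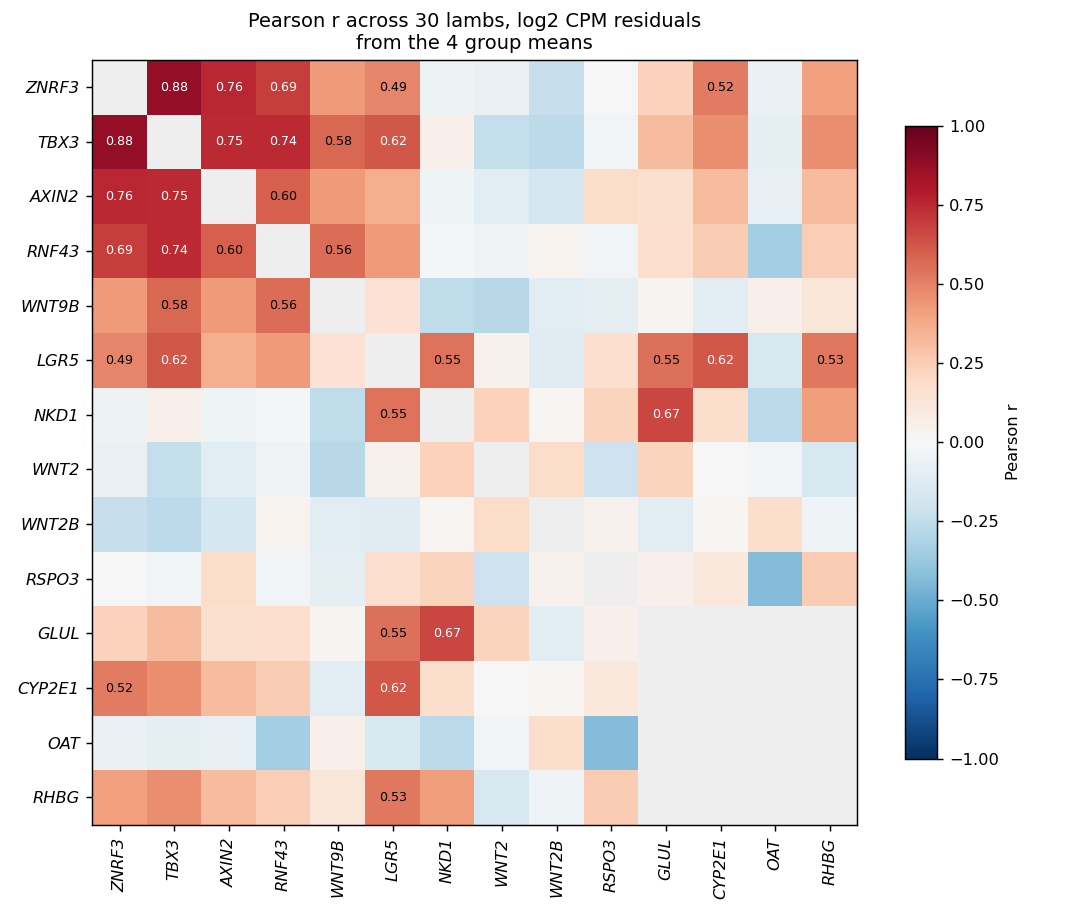
Pearson r between the 10 genes and with 4 pericentral markers over 30 lambs, on log2 CPM residuals from the 4 group means; colour runs from -1 (blue) to 1 (red), and r is printed where the adjusted permutation p was under 0.05. ZNRF3, TBX3, AXIN2 and RNF43 form one block with r of 0.60 to 0.88, and NKD1 is linked with LGR5 and GLUL at 0.55 and 0.67.

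TBX3, ZNRF3, AXIN2, RNF43 and WNT9B were lower in lambs with more ribosomal protein RNA, and for LGR5 and NKD1 no such relation passed. With the mean log2 CPM of 75 cytosolic ribosomal protein genes, r was -0.73 for ZNRF3 and TBX3, -0.60 for RNF43 and WNT9B and -0.59 for AXIN2 (Spearman's rho -0.74, -0.72, -0.58, -0.55 and -0.59; permutation p of r from 3e-05 to 0.00143, adjusted p from 0.00042 to 0.004; permutation p of rho from 4e-05 to 0.00426, adjusted p from 0.00056 to 0.0119). Without lambs 8313 and 8778 these r lay between -0.66 for TBX3 and -0.51 for AXIN2. An r below -0.5 with that mean was held by 19.1% of all genes tested. LGR5 was at -0.14, NKD1 at 0.33 and GLUL at 0.01, with permutation p of 0.489, 0.102 and 0.966. With this mean removed as well, 7 of the 45 pairs passed, all of them among the 11. The highest r was then that of LGR5 with TBX3, at 0.765. ZNRF3 with TBX3 was at r = 0.74, LGR5 with NKD1 at 0.63 and LGR5 with ZNRF3 at 0.57. ZNRF3 with RNF43 and RNF43 with AXIN2 no longer passed, nor did WNT9B with RNF43 or TBX3. Of the 40 pairs with pericentral markers 7 then passed, 4 of them among the 5. ZNRF3 with CYP2E1 no longer passed (r = 0.45, adjusted permutation p = 0.0712), and the 3 that passed only then were TBX3 with RHBG at r = 0.59, ZNRF3 with RHBG at 0.51 and RNF43 with OAT at -0.57.

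**Figure D5:**
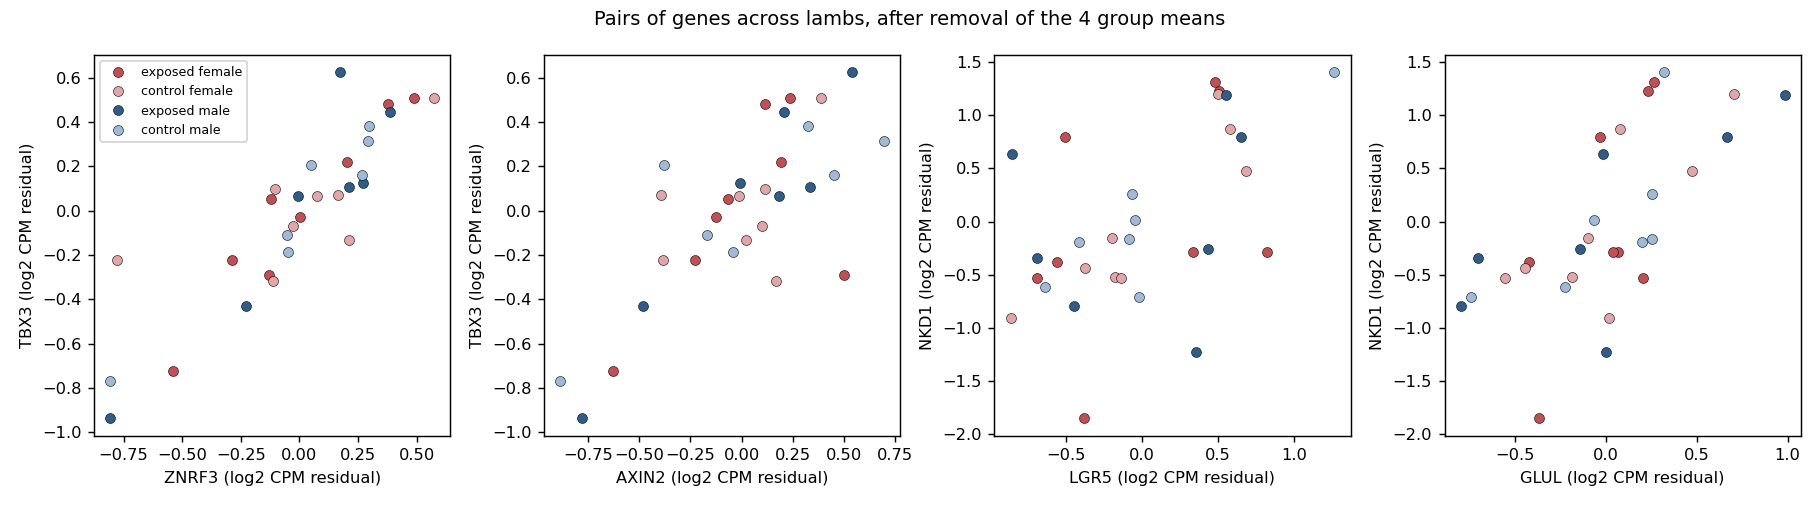
Log2 CPM residuals of 4 pairs of genes in 30 lambs after the group means were removed, coloured by group: ZNRF3 with TBX3, AXIN2 with TBX3, LGR5 with NKD1 and GLUL with NKD1. The points of the first pair lie closest to a line (r = 0.88), and all 4 groups spread along it.

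The genes whose levels across lambs were most like each member were searched among 12037 named genes of at least 1 CPM, by the same r over 30 lambs. ZNRF3 was most like PRRT1B, RXRA and NPRL3 at r = 0.93, 0.93 and 0.92, and TBX3 most like DGCR2, F7 and ADCK2 at 0.91, 0.90 and 0.90. RXRA encodes the shared partner of many nuclear receptors and F7 a clotting factor made by hepatocytes. RNF43 was most like NR2F6, TYSND1 and BCAR1 (0.87 to 0.89), and AXIN2 most like EML3, STK11 and ZNF219 (0.83 to 0.85). LGR5 was most like TMEM86B, IGFALS and GLYCTK (0.83 to 0.86), where IGFALS encodes the acid-labile subunit that carries IGF in blood. NKD1 was most like COPRS, MGST1 and OXNAD1 (0.67 to 0.72). The ligands had looser partners. WNT2 was most like GPIHBP1, the capillary endothelial anchor of lipoprotein lipase, at 0.64, followed by CCDC57 and STON1 at 0.63 and 0.62. WNT9B was most like MAU2, LHX2 and E2F4 (0.73 to 0.76), RSPO3 most like DNM1L, DYNLT3 and BEX2 (0.59 to 0.64), and WNT2B most like NT5DC1, TRMT112 and MRPL19 (0.60 to 0.65).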

How the data were processed

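Whole-liver RNA of 30 lambs was measured by sequencing of TruSeq libraries, per the labels' protocols. The tools named, per the submitters' processing notes, are featureCounts 1.5.0-p3, STAR, Trimmomatic, MultiQC and FastQC; their settings and the genome build are not given in the sources used here. The authors deposited whole-number read counts per gene, not normalized, with exon coordinates and gene length. 7 genes broken over 25 lines were joined; 0 columns were left without a lamb. Of the gene names, 28875 were found in RefSeq's gene table (assembly ARS-UI_Ramb_v3.0); all 28868 pairs of coordinates that could be compared were equal. The handling of shared exon bases was read from the counts themselves. Members and gene lists were chosen with earlier results of these data known.

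The counts were tested with edgeR 4.0.16 under R 4.3.3: filterByExpr, TMM scaling, 1 model with a mean for each of 4 groups, the robust quasi-likelihood test (26 residual degrees of freedom) and Benjamini-Hochberg adjustment over all 17840 genes, called at 0.05. The biological coefficient of variation was 35.2%. A standard error is the log2 fold change divided by the root of its F value. Log2 CPM used a prior count of 2. Correlations used Python 3.11.15. Alternatives were RLE scaling, DESeq2 1.42.0, limma 3.58.1 voom with sample weights, other low-count filters, ribosomal RNA rows left out, fits of the compared groups alone, and lambs 8778 or 8263 left out. Added after the data were seen were lambs 8408, 8731, and 8649 with 8668 left out, and the ribosomal protein mean as a term. All 10 members are named whatever their values; of each list, the called genes or the 2 smallest p are named, and further list genes and SLC1A2 were chosen after their values were seen. In simulated counts, exposure in males recovered 67 of 100 genes shifted by 1 on the log2 scale, and 96 of 100 shifted by 2, over 17711 genes. The shifted genes were drawn from all genes averaging at least 1 CPM and were shifted in both sexes. All were shifted in the same run, which makes the Benjamini-Hochberg cutoff easier to reach than where few genes change. Counts were drawn independently for each gene. These figures average over genes of many levels and spreads, so they are not recovery rates for single members. No batch or litter is labelled, and each lamb was taken as independent, so p-values measure only the spread between lambs, and any lambs of one dam would make them too low.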

Additional observations from a re-analysis of the deposited data

Results flagged for a closer look

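Of 40 sets of values, the 10 genes in each of 4 groups, 5 held 1 lamb far from its group by Dixon's test at the 95% level. Chance gives about 1 in 20 only where values are normal and sets are independent. The test was run on CPM, and some members are correlated across lambs, so 5 of 40 cannot be set against that rate. Biosolids female 8731 had 11.5 CPM of WNT2B, and the other 7 of its group lay between 1.74 and 5.55 CPM. Control male 8408 had 13.55 CPM of LGR5, with the others between 3.58 and 5.55 CPM, and 4.76 CPM of NKD1, with the others between 1.06 and 2.11 CPM. Control male 8364 had 39.4 CPM of ZNRF3, below the others at 66.4 to 84.7 CPM, and its ribosomal protein mean of 7.61 log2 CPM was the highest of the control males, whose median was 6.71. Control female 8313 had 188.5 CPM of TBX3, above the others at 107 to 142 CPM, and the lowest ribosomal protein mean of all 30 lambs, 6.51 log2 CPM. The part of RNA composition in these values was not tested.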

How the results depend on the processing

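No member passed in any of the 6 comparisons under the main settings or any alternative run (0 of 76 fits). Of 700 member differences under alternatives, 674 kept their direction and 26 changed sign, none of them larger than 0.35 in size. The WNT2B log2 fold change in males lay between -1.61 and -1.37 (adjusted p 0.352 to 0.995), and its interaction between -2.29 and -1.81 (adjusted p 0.375 to 1). The cause of the sign changes was not tested.

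Exposure in females turned to 0.037 for WNT9B without lamb 8263 and 0.07 without 8649 and 8668, and to -0.026 for TBX3 by voom. Exposure in males turned to 0.068 by voom and 0.22 without lamb 8408 for LGR5, to 0.026 for NKD1 without 8408 and to 0.027 for RNF43 without 8778. Over both sexes WNT2 turned to -0.057 by voom, -0.038 without 8263 and -0.014 without 8649 and 8668, and RSPO3 to -0.023 without 8778. The interaction of ZNRF3 turned to 0.069 by voom, 0.064 without 8778, 0.069 without 8263, 0.02 without 8408 and 0.03 without 8731, that of RNF43 to -0.018 without 8649 and 8668, that of NKD1 to 0.16 without 8408 and 0.17 without 8649 and 8668, and that of WNT9B to 0.002 without 8731. In controls the sex difference of WNT9B turned to -0.018 with at least 1 CPM in 15 libraries. In biosolids lambs the sex difference turned to 0.037 for WNT2 and 0.005 for WNT9B by voom, to 0.016 for WNT9B without 8731, and without 8649 and 8668 to -0.023 for AXIN2 and 0.13 for NKD1.

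Over all genes, DESeq2 called 4 in males, 4 over both sexes and 1 for the interaction, where edgeR called 0. For sex in controls edgeR called 15, DESeq2 54, voom 57 and the 1 CPM filter 3; in biosolids lambs edgeR called 17, the 1 CPM filter 7, the fit of those groups alone 10 and the fit without 8649 and 8668 11. Pairs of members that passed numbered 11, and 8 to 11 with other scaling or prior count, without 8778 or 8263, or by Spearman's rho; with the ribosomal protein mean removed they numbered 7. No paired analysis was possible because the groups share no replicate numbers. Depth limits the low ligands most: in the library of 8778, WNT2 rests on 8 reads and WNT2B on 9.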

Other observations

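SLC1A2, a glutamate transporter of the pericentral list (chromosome 15, 64573795 to 64740182), was either near 0 or well expressed, with no lamb between. 12 lambs lay at or below 0.650 CPM and 18 between 56.2 and 266 CPM. The low lambs were 3 of 8 biosolids females, 3 of 8 control females, 4 of 7 biosolids males and 2 of 7 control males. The cause of this split was not tested.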
